A study of Mus musculus with 23 samples.

Results

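Cytochrome P450 family 3, subfamily a (Cyp3a) genes were followed in the livers of 15 female mice that express oncogenic *Braf* in the liver or do not. The members were taken by symbol, *Cyp3a11*, *Cyp3a13*, *Cyp3a16*, *Cyp3a25*, *Cyp3a41a*, *Cyp3a41b*, *Cyp3a44* and *Cyp3a59*, which makes 8 of the 27179 genes in the count table. All mice carried *Alb-Cre*, in which the albumin promoter drives Cre recombinase in hepatocytes, and *Trp53* flx/flx, so that by design the controls also lacked *Trp53* in these cells. The 6 Ctrl mice had wild-type *Braf* and *Icmt* flx/+. The 6 ABpIF/+ mice carried in addition the conditional *Braf* CA allele, which yields an activated kinase after recombination, and *Icmt* flx/+. The 3 ABpIF/F mice carried *Braf* CA and *Icmt* flx/flx, a design in which Cre deletes both copies of the gene for isoprenylcysteine carboxyl methyltransferase in hepatocytes. The sample labels write "BRAF +/+" for both mutant groups, whereas the series text gives *Braf* CA/+. The tissue was liver free of visible tumors and includes cells in which Cre is not active. The ABpIF/F mice differed in age, and the age behind each library and in the other groups is not given in the sources used here. Of the Ctrl mice, BG3 carries the strain label of all mutants and the other 5 carry another.

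Cyp3a enzymes sit in the endoplasmic reticulum of hepatocytes and oxidise steroids, bile acids and a large share of drugs, with electrons passed on by P450 oxidoreductase and heme as cofactor. Their transcription is induced by the nuclear receptors PXR (*Nr1i2*) and CAR (*Nr1i3*) and needs liver factors such as HNF4A. In mice, several members differ between the sexes because the pituitary pattern of growth hormone release acts on the liver through STAT5B, and *Cyp3a41a*, *Cyp3a41b* and *Cyp3a44* are known as female-predominant genes of the adult liver.

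Libraries held 24742910 to 32262649 counts on genes, and 8 of the 15 mice were named by 2 samples each, with 1 column per mouse in the table. *Xist* had 7277 to 25990 counts per library and the 4 Y-linked genes checked had at most 2 counts together. *Icmt* RNA was lower in ABpIF/F than in Ctrl mice, with a log2 fold change of -0.96 (SE 0.13, edgeR adjusted p = 8.51e-06), and how complete the deletion was cannot be read from it. The summed hepatocyte markers *Alb*, *Ttr*, *Tat* and *Cps1* stood at 86909 to 116430 CPM (counts scaled by TMM to a common library size) in Ctrl, 142618 to 196901 in ABpIF/+ and 104026 to 189393 in ABpIF/F mice. Most of this sum was *Alb*, and the 4 markers did not move together. Of the log2 fold changes in ABpIF/+ and ABpIF/F mice against Ctrl, those of *Alb* were 0.79 and 0.69, of *Ttr* -0.81 and -0.30, of *Cps1* -0.61 and -1.03, and of *Tat* 1.06 and -1.81, and only those of *Tat* were called. In bulk tissue, fewer cells of a type and less RNA per cell cannot be told apart.

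Except for *Cyp3a13*, the members lie together on chromosome 5 (build GRCm38.p6), within a cluster of 769.8 kb at chr5:145345149-146114978 that begins 7.42 Mb from *Cyp3a13*. In order of coordinates the cluster holds *Cyp3a57*, which is no member, then *Cyp3a16*, *Cyp3a41b*, *Cyp3a41a*, *Cyp3a44*, *Cyp3a11*, *Cyp3a25* and *Cyp3a59*. *Cyp3a59* is transcribed from the plus strand and the other members from the minus strand. Promoters are shown for 4 members that fell in ABpIF/F mice and, as the contrast, for *Cyp3a25*, which did not pass the test. Each is the stretch of 250 bases before the start that RefSeq gives for the promoter, on the strand of the gene. This start is not always the outer end of the gene. The windows of *Cyp3a16*, *Cyp3a25* and *Cyp3a44* reach into the genes, which end at 145469740, 146009644 and 145805891. Those of *Cyp3a41b* and *Cyp3a59*, not shown, do so too. That of *Cyp3a13*, chr5:137921620-137921869, also not shown, lies wholly within its gene at chr5:137892933-137925610. Capitals mark the letters TGTTTAC, a binding motif of FOXA factors, and CAAAGTCCA, a binding motif of HNF4A. The windows are chr5:145879855-145880104 for *Cyp3a11*, chr5:145469724-145469973 for *Cyp3a16*, chr5:145720137-145720386 for *Cyp3a41a*, chr5:145805875-145806124 for *Cyp3a44* and chr5:146009619-146009868 for *Cyp3a25*.
Cyp3a11: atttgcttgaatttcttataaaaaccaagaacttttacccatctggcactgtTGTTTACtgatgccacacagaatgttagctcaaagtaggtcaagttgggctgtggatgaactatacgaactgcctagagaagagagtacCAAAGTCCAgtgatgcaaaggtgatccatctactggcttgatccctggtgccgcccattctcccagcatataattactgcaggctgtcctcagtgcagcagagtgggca
Cyp3a16: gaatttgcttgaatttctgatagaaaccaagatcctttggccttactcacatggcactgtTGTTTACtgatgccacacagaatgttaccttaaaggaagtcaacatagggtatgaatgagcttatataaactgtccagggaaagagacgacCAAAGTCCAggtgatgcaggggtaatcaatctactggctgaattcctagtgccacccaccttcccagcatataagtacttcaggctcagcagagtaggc
Cyp3a41a: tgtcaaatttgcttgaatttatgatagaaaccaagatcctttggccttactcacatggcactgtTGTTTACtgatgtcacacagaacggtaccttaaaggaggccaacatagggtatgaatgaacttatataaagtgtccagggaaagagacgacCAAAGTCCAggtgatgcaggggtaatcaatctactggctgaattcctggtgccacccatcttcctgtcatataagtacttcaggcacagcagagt
Cyp3a44: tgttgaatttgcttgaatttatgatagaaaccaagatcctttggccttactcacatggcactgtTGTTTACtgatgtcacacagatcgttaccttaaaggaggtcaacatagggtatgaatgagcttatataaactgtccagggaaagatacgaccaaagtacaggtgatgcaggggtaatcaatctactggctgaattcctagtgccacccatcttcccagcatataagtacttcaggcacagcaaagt
Cyp3a25: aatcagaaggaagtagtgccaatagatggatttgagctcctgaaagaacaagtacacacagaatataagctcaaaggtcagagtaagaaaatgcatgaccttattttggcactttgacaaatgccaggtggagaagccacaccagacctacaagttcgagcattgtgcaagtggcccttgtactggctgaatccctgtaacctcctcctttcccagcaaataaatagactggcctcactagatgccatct

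Read on both strands, TGTTTAC stood in 836 of 27025 RefSeq promoters of this length (3.09%) and in those of 5 of the 8 members, *Cyp3a11*, *Cyp3a16*, *Cyp3a41a*, *Cyp3a41b* and *Cyp3a44*, at 180 to 198 bases before the start. CAAAGTCCA was held by 103 of these promoters (0.381%) and by those of *Cyp3a11*, *Cyp3a16*, *Cyp3a41a* and *Cyp3a41b*. The letters did not overlap each other. The 5 members with TGTTTAC are those called lower in ABpIF/F vs Ctrl below, which is a description with no test. The nuclear receptor half-site AGGTCA was found in 13.8% of all promoters and in 4 members, *Cyp3a11*, *Cyp3a25*, *Cyp3a44* and *Cyp3a59*. The STAT5 letters TTCNNNGAA were found in 7.18% of all promoters and in no member within this window. These promoters are related by descent, so shared letters are not separate observations. The windows of *Cyp3a41a* and *Cyp3a41b* were 99.6% identical, those of *Cyp3a16* and *Cyp3a44* 94.4%, and those of *Cyp3a25* and *Cyp3a59* 95.2%, while *Cyp3a41a* and *Cyp3a25* shared 58.0% of the bases. A match is a description of the letters and does not show binding.

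Likeness between the transcripts limits which members reads can separate. Of the 150-base windows in the principal transcript of *Cyp3a41a*, 82.9% also occurred in *Cyp3a41b*, and the 2 transcripts were 99.9% identical over their aligned length. *Cyp3a25* and *Cyp3a59* shared 13 windows each, 0.702% and 0.706% of theirs. *Cyp3a11*, *Cyp3a13*, *Cyp3a16* and *Cyp3a44* shared none with another gene. The division of reads between *Cyp3a41a* and *Cyp3a41b* is therefore uncertain. So are their levels and shares, which would be too low if reads with several matches were left out of the counts. Together the pair held 1379 to 7213 counts in Ctrl, 27 to 137 in ABpIF/+ mice, and 0, 20 and 23 counts in ABpIF/F mice.

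Compared per kilobase of transcript, *Cyp3a11* had the highest level in Ctrl livers, at 1295 ± 309 CPM per kb (SD, n = 6). *Cyp3a25* was next with 292 ± 60.7 CPM per kb, and its range lay apart from those above and below it. *Cyp3a44*, *Cyp3a16*, *Cyp3a13*, *Cyp3a41a* and *Cyp3a59* followed at 90.8 ± 42.4, 78.7 ± 51.4, 69.9 ± 11.5, 64.2 ± 31.1 and 40.0 ± 10.7 CPM per kb, each overlapping its neighbour in this order. *Cyp3a41b* was lowest with 6.58 ± 4.23 CPM per kb. In every group the ranks of *Cyp3a41a* and *Cyp3a41b* are uncertain, because most of their sequence is shared. In ABpIF/+ livers *Cyp3a11* at 402 ± 75.6 and *Cyp3a25* at 366 ± 71.5 CPM per kb overlapped, and *Cyp3a13* at 107 ± 31.6 came after them. In the 3 ABpIF/F livers *Cyp3a11* and *Cyp3a25* also overlapped, at 456 ± 236 and 226 ± 89.8 CPM per kb, with *Cyp3a13* next at 50.0 ± 14.5. *Cyp3a44*, *Cyp3a41a* and *Cyp3a41b* were the 3 lowest members in ABpIF/+ livers, at 4.42 CPM per kb or less. In ABpIF/F livers these and *Cyp3a16* were the 4 lowest, at 2.62 CPM per kb or less.

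The comparisons ask how livers with *Braf* activation differed from Ctrl, and how those with loss of *Icmt* on top of it differed. The paper reports that ABpIF/+ mice lost weight and became ill, while Ctrl and ABpIF/F mice kept gaining weight. In comparisons with ABpIF/+ mice, the alleles and this condition cannot be told apart. Calls were made with the edgeR quasi-likelihood test on all genes and needed an adjusted p below 0.01 together with a log2 fold change of 1 or more in size. For the listed genes below, fell and rose mean called lower and called higher. In ABpIF/+ vs Ctrl, 4 of the 8 members were called lower, against 5.35% of all genes, and none higher, against 4.69%. In ABpIF/F vs Ctrl, 5 of 8 were called lower, against 2.38% of all genes, and none higher, against 4.55%. In ABpIF/+ vs ABpIF/F, 2 of 8 were called higher, against 1.76% of all genes, and none lower, against 5.49%. These shares are over all 27179 genes, of which 20380 had a read in any mouse, and are lower than among expressed genes. A fit restricted by filterByExpr to 14596 expressed genes called 1545 lower and 1258 higher in ABpIF/+ vs Ctrl. In ABpIF/F vs Ctrl it called 753 lower and 1156 higher, and in ABpIF/+ vs ABpIF/F 581 higher and 1473 lower. The median log2 fold change of the members was -1.60, -3.31 and 0.78 in these comparisons, and that of all genes was 0 in each. The first and second comparison share the Ctrl mice and the third shares its mice with both, so the counts do not add up as separate evidence. The same 4 members in ABpIF/+ and 5 in ABpIF/F mice were lower in every mutant than in every Ctrl mouse, a separation seen for 8.13% and 7.85% of all genes.

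**Figure D1:**
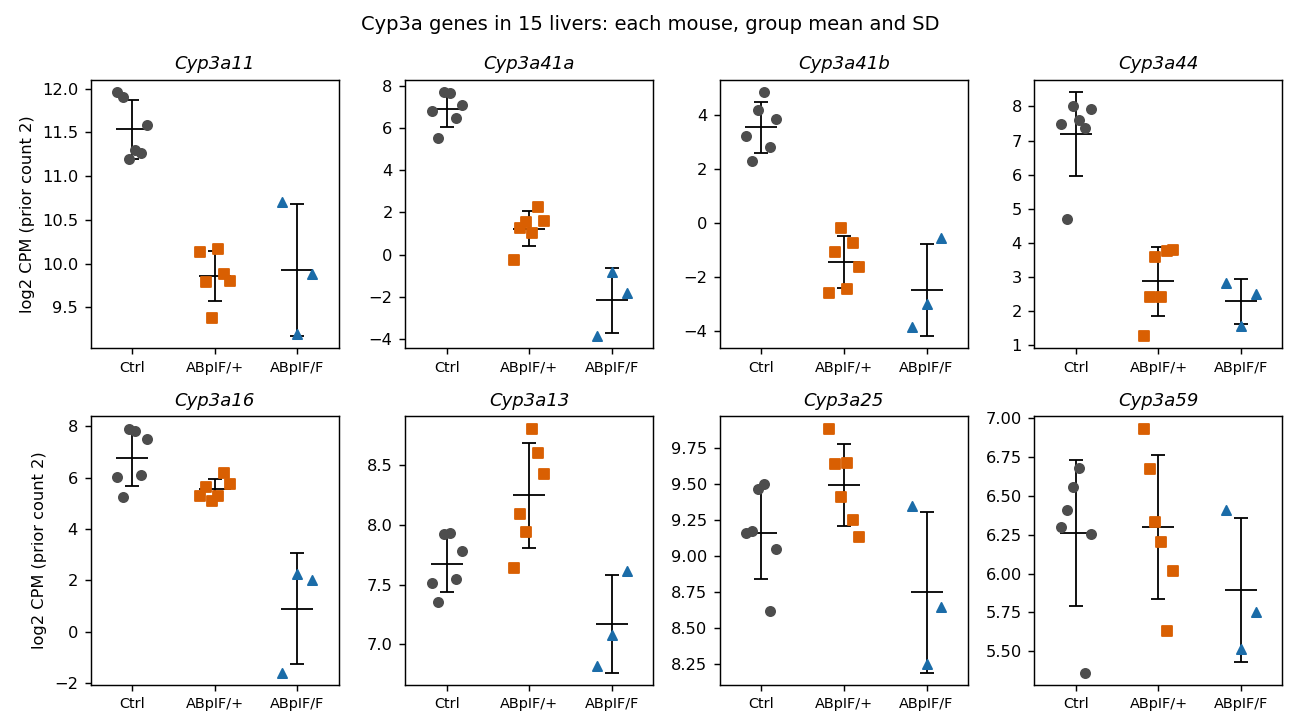
Level of each Cyp3a gene as log2 CPM (vertical axis, prior count of 2), with 1 point per mouse, the group mean as the long horizontal line and the SD as the error bar, for 6 Ctrl, 6 ABpIF/+ and 3 ABpIF/F mice. In *Cyp3a11*, *Cyp3a41a*, *Cyp3a41b* and *Cyp3a44* all mutants lie below all Ctrl mice, in *Cyp3a16* all ABpIF/F mice and 1 ABpIF/+ mouse do, and vertical scales differ between panels.

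*Cyp3a11*, the main Cyp3a enzyme of adult mouse liver and a classic PXR target, fell in both mutant groups. In Ctrl mice it ranged from 2348 to 3993 CPM with a median of 2789. In ABpIF/+ mice the lowest value was 665, the median 917 and the highest 1151 CPM. The ABpIF/F mice had 1672 (BG183), 586 (BG38) and 945 (BG90) CPM. No mutant reached the lowest Ctrl value, and the 3 ABpIF/F mice spread around the range of the ABpIF/+ mice. The mean was 3.22 times lower in ABpIF/+ than in Ctrl mice, with a log2 fold change of -1.69 (SE 0.22, adjusted p = 2.85e-06). In ABpIF/F mice it was 2.84 times lower, with a log2 fold change of -1.51 (SE 0.28, adjusted p = 0.000426). Between the mutant groups the difference was -0.18 on the log2 scale (95% interval -0.69 to 0.32, adjusted p = 0.855).

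*Cyp3a41a*, a female-predominant steroid-oxidising member, showed the largest fold change of the family in both comparisons with Ctrl. Ctrl mice ranged from 46.5 to 208 CPM, with a median of 124. ABpIF/+ mice ranged from 0.767 to 4.64 CPM, with a median of 2.59. ABpIF/F mouse BG183 had no count, where 3 counts would be 0.0979 CPM, BG38 had 0.499 CPM from 18 counts and BG90 0.214 CPM from 6 counts. The 3 groups did not overlap. The mean was 51.1 times lower in ABpIF/+ mice (log2 fold change -5.68, SE 0.53, adjusted p = 2.72e-06) and 557 times lower in ABpIF/F mice (-9.02, SE 0.90, adjusted p = 1.36e-05). Without BG38 the second value was -10.27 (adjusted p = 0.000124). The difference between ABpIF/+ and ABpIF/F was 3.35 (SE 0.85) with an adjusted p of 0.0143, which missed the threshold, and no ABpIF/F mouse had more than 18 counts. By DESeq2 the same difference was 3.42 with an adjusted p of 1.97e-05.

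*Cyp3a41b*, the near copy of *Cyp3a41a*, had 4.80 to 28.5 CPM in Ctrl mice, with a median of 11.7. ABpIF/+ mice had 0.0959 to 0.806 CPM, with a median of 0.334, from 3 to 20 counts. The ABpIF/F mice had 0, 2 and 17 counts, or 0, 0.0554 and 0.607 CPM, for BG183, BG38 and BG90. Both mutant groups lay below Ctrl and overlapped each other. The log2 fold change was -5.21 (SE 0.67, adjusted p = 4.54e-05) in ABpIF/+ and -6.01 (SE 0.97, adjusted p = 0.000583) in ABpIF/F mice. Without BG90 the latter was -8.64 (adjusted p = 0.000400). *Cyp3a41b* took 7.23% to 12.3% of the counts of the pair in Ctrl mice and 73.9% of 23 counts in BG90. With the counts of the pair summed before the fit, the log2 fold changes were -5.63 and -8.31 (adjusted p = 5.63e-06 and 3.09e-05), so the fall did not depend on the division of reads.

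*Cyp3a44*, a further female-predominant member, ranged from 26.1 to 259 CPM in Ctrl mice, with a median of 187. The range was 2.33 to 13.9 CPM in ABpIF/+ mice, with a median of 8.58, and the ABpIF/F mice had 6.98 (BG183), 2.85 (BG38) and 5.57 (BG90) CPM. Mutants of both groups overlapped each other and lay below the lowest Ctrl mouse, malpa387. The mean was 20.5 times lower in ABpIF/+ (log2 fold change -4.36, SE 0.60, adjusted p = 0.000104) and 34.7 times lower in ABpIF/F mice (-5.12, SE 0.85, adjusted p = 0.000878). Between the mutants the difference was 0.76 (95% interval -0.59 to 2.11, adjusted p = 0.605).

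*Cyp3a16*, known as a perinatal form that is also transcribed in adult females, separated the mutant groups. Ctrl mice ranged from 37.9 to 240 CPM, with a median of 125. ABpIF/+ mice ranged from 33.7 to 71.9 CPM, with a median of 44.6, and overlapped the Ctrl mice. In ABpIF/F mice it had 0.261 CPM from 8 counts (BG183), 4.71 CPM (BG38) and 3.97 CPM (BG90), all below every mouse of the other groups. The log2 fold change of ABpIF/+ vs Ctrl was -1.50 (SE 0.55, adjusted p = 0.0637), which is no call. The mean in ABpIF/F mice was 45.7 times lower than in Ctrl (log2 fold change -5.51, SE 0.91, adjusted p = 0.000844). ABpIF/+ mice had 16.1 times the mean of ABpIF/F mice, and this difference was itself called (4.00, SE 0.84, adjusted p = 0.00489). It lost the call without BG38 or BG90, with adjusted p of 0.0171 and 0.0191, where 2 ABpIF/F mice remained.

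*Cyp3a13*, which is transcribed in liver and intestine of both sexes and lies outside the cluster, was the other member called between the mutants. It had 163 to 244 CPM in Ctrl mice (median 204), 199 to 446 in ABpIF/+ mice (median 307), and 113 (BG183), 135 (BG38) and 196 (BG90) in ABpIF/F mice. Every ABpIF/+ mouse was above every ABpIF/F mouse, and both groups overlapped Ctrl. The mean in ABpIF/+ was 2.13 times that in ABpIF/F mice (log2 fold change 1.09, SE 0.23, adjusted p = 0.00197). Against Ctrl the log2 fold change was 0.61 (SE 0.18, adjusted p = 0.0152) in ABpIF/+ and -0.48 (SE 0.23, adjusted p = 0.178) in ABpIF/F mice, and neither passed. The call stood close to the fold threshold, and without BG40, BG183 or BG38 the value was 0.97, 0.93 or 1.03 with adjusted p of 0.00369, 0.0163 and 0.0202, none of them called. Together with *Cyp3a16* and *Cyp3a41a* it made 3 of 8 members that were higher in every ABpIF/+ than in every ABpIF/F mouse, a separation seen for 9.15% of all genes.

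*Cyp3a25* and *Cyp3a59*, neighbours at the end of the cluster, did not pass the test in any comparison. *Cyp3a25*, an abundant member of adult liver, had 393 to 723 CPM in Ctrl (median 575) and 560 to 945 in ABpIF/+ mice (median 739), and 652, 304 and 400 CPM in ABpIF/F mice BG183, BG38 and BG90. Its log2 fold changes were 0.33 (95% interval -0.03 to 0.69), -0.37 (-0.82 to 0.08) and 0.70 (0.24 to 1.15) in ABpIF/+ vs Ctrl, ABpIF/F vs Ctrl and ABpIF/+ vs ABpIF/F, with adjusted p of 0.236, 0.349 and 0.0402. Without BG183, the ABpIF/F mouse with the highest *Cyp3a25*, the last of these reached 1.06 (adjusted p = 0.00360). *Cyp3a59* had 41.1 to 103 CPM in Ctrl (median 81.8) and 49.5 to 122 in ABpIF/+ mice (median 77.1), and 85.0, 45.7 and 53.8 CPM in the ABpIF/F mice. All 3 groups overlapped, and the intervals of its log2 fold changes ran from -0.42 to 0.51, from -0.95 to 0.20 and from -0.16 to 0.99.

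The only other gene of the table with a symbol that begins with Cyp3a was *Cyp3a57*, at the opposite end of the cluster. It had 0 to 4 counts per library in Ctrl, 10 to 28 in ABpIF/+, and 5, 31 and 11 in ABpIF/F mice. In ABpIF/+ vs Ctrl it was called higher (log2 fold change 2.65, SE 0.58, adjusted p = 0.00119), at a mean of 0.593 CPM in ABpIF/+ mice, and with the strain label as a covariate it was 1.82 with an adjusted p of 0.418. The 3 nearest genes on each side of the cluster that had counts, *Zkscan5*, *Zfp655*, *Zscan25*, *1700001J03Rik*, *Rnf6* and *Cdk8*, were not called in any comparison. Apart from *1700001J03Rik*, at a mean of 0.0997 CPM, their log2 fold changes lay between -0.36 and 0.58.

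**Figure D2:**
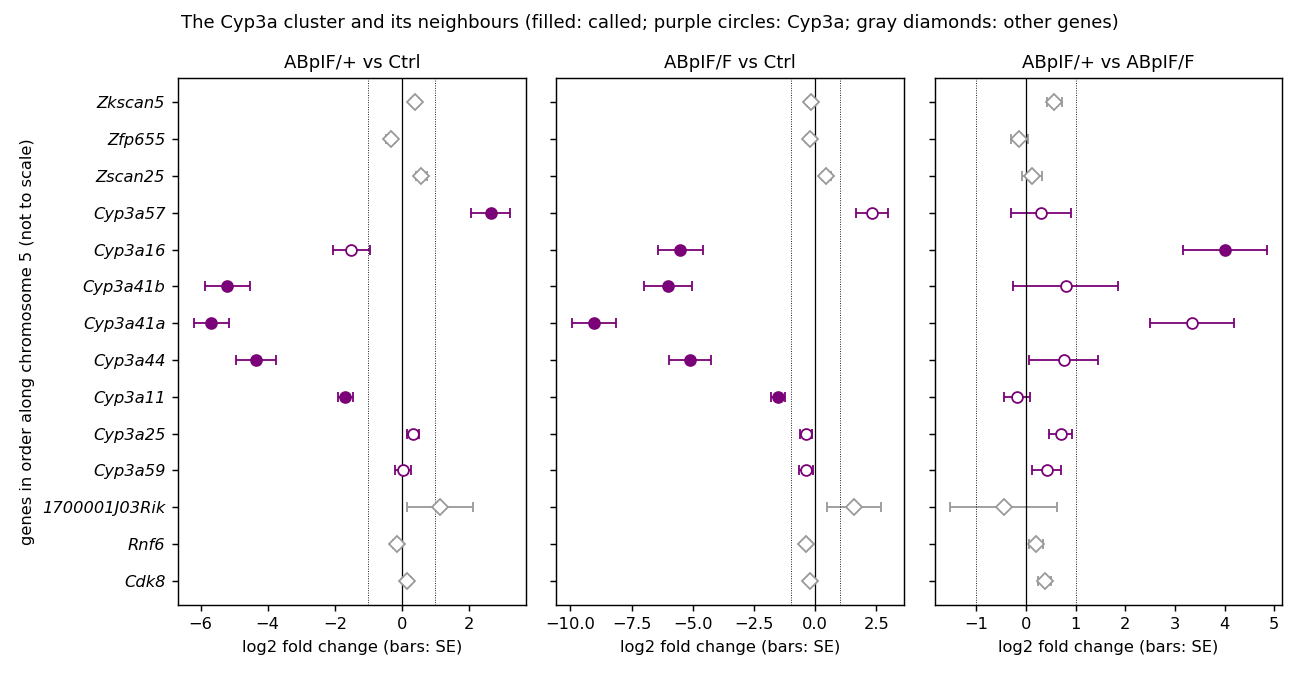
Log2 fold change (horizontal axis, bars are SE) of each gene of the Cyp3a cluster and of its 3 nearest neighbours with counts on each side, in order along chromosome 5 but not to scale, for the 3 comparisons; filled symbols are called and dotted lines mark a log2 fold change of 1 in either direction. In ABpIF/F vs Ctrl the called members are adjacent (*Cyp3a16* to *Cyp3a11*), while *Cyp3a25* and *Cyp3a59* are both at -0.37 and not called. In ABpIF/+ vs Ctrl *Cyp3a16* is not called, in ABpIF/+ vs ABpIF/F *Cyp3a25* is at 0.70, and horizontal scales differ between panels.

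Together the 8 genes made up a smaller part of the library in both mutant groups. They held 0.362% to 0.518% of all counts in Ctrl mice (mean 0.458 ± 0.0563, SD, n = 6) and 0.163% to 0.235% in ABpIF/+ mice (0.198 ± 0.0322, n = 6). The ABpIF/F mice had 0.253% (BG183), 0.134% (BG38) and 0.151% (BG90). No mutant overlapped the Ctrl mice. Shares here are of counts not scaled by TMM. With TMM scaling the 8 genes summed to 3413 to 5190 CPM in Ctrl, 1720 to 2520 in ABpIF/+ and 1079 to 2530 in ABpIF/F mice. On the log2 scale the share fell by 1.21 in ABpIF/+ (2.32 times lower, two-sided exact permutation test, p = 0.00216, adjusted over 3 comparisons 0.00649). In ABpIF/F mice it fell by 1.40 (2.64 times lower, exact permutation p = 0.0119, adjusted p = 0.0179). These are the smallest p that 924 and 84 arrangements of the mice allow. ABpIF/+ and ABpIF/F differed by 0.19 (exact permutation, adjusted p = 0.429). Without *Cyp3a11* in the sum, the share in ABpIF/+ mice differed from Ctrl by -0.30 (exact permutation, adjusted p = 0.136).

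The composition shifted as well. *Cyp3a11* held 57.0% to 80.3% of the Cyp3a counts in Ctrl, 38.7% to 46.2% in ABpIF/+ and 54.3% to 66.1% in ABpIF/F mice. On average *Cyp3a25* held 13.5%, 34.4% and 26.3%, and *Cyp3a13* 4.83%, 14.9% and 9.72%, in the same order. *Cyp3a16*, *Cyp3a41a*, *Cyp3a41b* and *Cyp3a44* held 10.8% ± 5.62 in Ctrl, 2.88% ± 1.02 in ABpIF/+ and 0.561% ± 0.244 in ABpIF/F mice. The log2 ratio of these 4 genes to *Cyp3a11*, which does not depend on how libraries are scaled, was -2.91 ± 1.23 in Ctrl, -4.01 ± 0.55 in ABpIF/+ and -6.84 ± 0.89 in ABpIF/F mice. These 4 were also the members with the largest falls in ABpIF/F vs Ctrl, so tests of the ratio are no separate evidence of a shift. The ratio was 15.3 times lower in ABpIF/F than in Ctrl mice (exact permutation p = 0.0119, adjusted p = 0.0179). It was 7.13 times higher in ABpIF/+ than in ABpIF/F mice (exact permutation p = 0.0119, adjusted p = 0.0179). Between ABpIF/+ and Ctrl the difference was -1.10 (exact permutation, adjusted p = 0.0758). Without *Cyp3a16* in the numerator the ABpIF/+ vs Ctrl difference was -3.15 (adjusted exact permutation p = 0.0130) and that of ABpIF/+ vs ABpIF/F 0.96 (adjusted exact permutation p = 0.274). Without Ctrl mouse malpa387 the first of these differences, with all 4 genes, was -1.53 (adjusted exact permutation p = 0.0130).

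**Figure D3:**
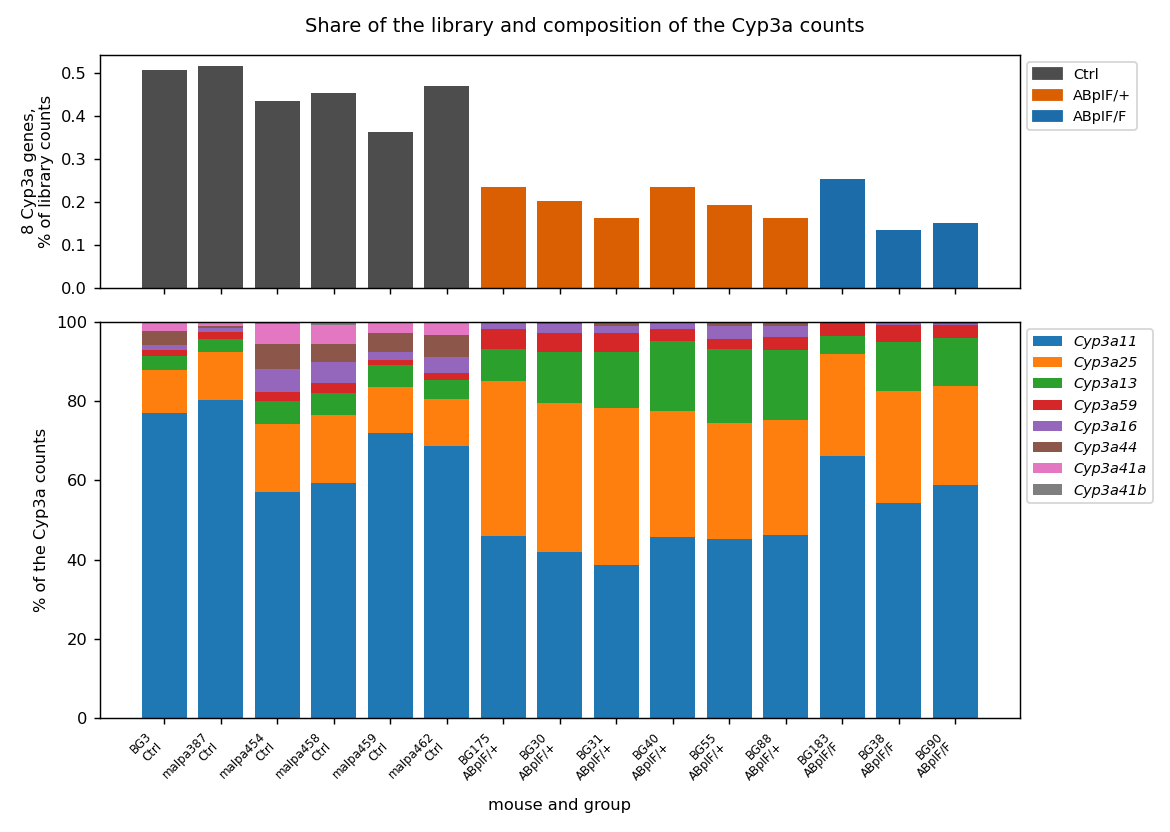
Upper panel, percent of each library's counts on the 8 Cyp3a genes; lower panel, percent of the Cyp3a counts on each gene, with 1 bar per mouse for 6 Ctrl, 6 ABpIF/+ and 3 ABpIF/F mice. Shares of the library were 0.362% to 0.518% in Ctrl and at most 0.253% in mutants, and *Cyp3a11* took 38.7% to 46.2% of the Cyp3a counts in ABpIF/+ mice against 57.0% to 80.3% in Ctrl mice.

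Ctrl mouse malpa387 stood apart in the 4 genes but not in *Cyp3a11*. Summed over *Cyp3a16*, *Cyp3a41a*, *Cyp3a41b* and *Cyp3a44* it had 115 CPM where the other Ctrl mice had 330 to 725, and its *Cyp3a11* of 3828 CPM was the second highest. Its clock genes differed too. A clock score, the mean log2 CPM of *Npas2*, *Clock*, *Cry1* and *Nfil3* (morning phase) minus that of *Nr1d1*, *Nr1d2*, *Per3*, *Ciart*, *Dbp* and *Tef* (evening phase), was 0.30 in malpa387 and -4.72 to -3.93 in the other Ctrl mice. ABpIF/+ mice scored -4.24 to -3.38, within or close to these Ctrl mice, and ABpIF/F mice -1.30 (BG183), -0.08 (BG38) and 1.74 (BG90). The hour at which livers were taken is not given in the sources used here. The 4 genes summed to 42.4 to 90.6 CPM in ABpIF/+ mice and to 7.24, 8.12 and 10.4 CPM in BG183, BG38 and BG90. The sum in malpa387, whose score was in the range of the ABpIF/F mice, lay above these. Its *Cyp3a16* alone, at 37.9 CPM, lay within the ABpIF/+ range of 33.7 to 71.9 CPM. With the score as a covariate, the 4 calls of ABpIF/+ vs Ctrl remained. Of the 5 in ABpIF/F vs Ctrl, *Cyp3a41a* remained (log2 fold change -7.87, adjusted p = 0.000317), while *Cyp3a11* (-1.52, 0.0101), *Cyp3a16* (-4.32, 0.0438), *Cyp3a41b* (-5.29, 0.0256) and *Cyp3a44* (-3.18, 0.0752) missed the threshold. Neither call of ABpIF/+ vs ABpIF/F remained, with *Cyp3a13* at 1.03 (adjusted p = 0.106) and *Cyp3a16* at 2.88 (0.191). With malpa387 as the single Ctrl mouse at such a score, the clock score and the ABpIF/F genotype can hardly be told apart here.

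**Figure D4:**
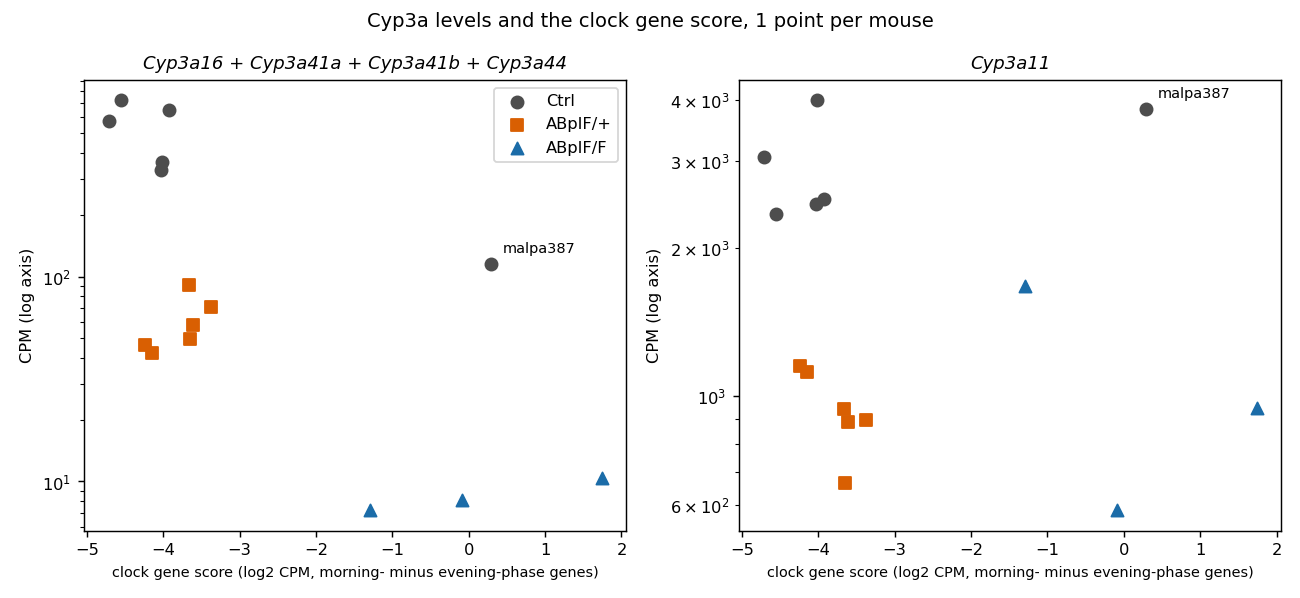
Clock gene score (horizontal axis, log2 CPM of morning- minus evening-phase genes) against the summed CPM of *Cyp3a16*, *Cyp3a41a*, *Cyp3a41b* and *Cyp3a44* (left, log axis) and the CPM of *Cyp3a11* (right, log axis), 1 point per mouse. Ctrl mouse malpa387, at a score of 0.30, has the lowest Ctrl sum of 115 CPM and the second highest *Cyp3a11*, and the ABpIF/F mice lie at 7.24 to 10.4 CPM on the left.

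The strain labels divide the Ctrl mice. BG3, which carries the label of the mutants, had 3993 CPM of *Cyp3a11*, 111 of *Cyp3a41a*, 9.15 of *Cyp3a41b*, 178 of *Cyp3a44* and 65.5 of *Cyp3a16*. The first 4 lay above every mutant, and the *Cyp3a16* level lay within the ABpIF/+ range and above all ABpIF/F mice. With the strain label as a covariate, estimated from this single mouse, the 4 calls of ABpIF/+ vs Ctrl remained, and *Cyp3a16*, not called there, went from -1.50 to -0.45 (adjusted p = 1.0). In ABpIF/F vs Ctrl *Cyp3a16* (log2 fold change -4.45, adjusted p = 0.0160) and *Cyp3a41b* (-5.44, 0.0107) missed the threshold.

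PXR and CAR are the receptors best known to induce the family. *Nr1i2*, which encodes the drug and steroid sensor PXR, had log2 fold changes of -0.42 in ABpIF/+ (adjusted p = 0.00281) and -0.88 in ABpIF/F mice (adjusted p = 3.31e-05), below the fold threshold in each. *Nr1i3*, which encodes CAR, was -0.57 (adjusted p = 0.0260) in ABpIF/+ mice. It fell in ABpIF/F mice, from 102 to 185 CPM in Ctrl to 46.1 (BG183), 31.7 (BG38) and 48.7 (BG90), with a log2 fold change of -1.64 (adjusted p = 6.53e-05), and ABpIF/+ exceeded ABpIF/F mice by 1.06 (adjusted p = 0.00327). Of 9 nuclear receptors and partners listed, 1 was called higher (*Ppargc1a*, a coactivator, 1.43) and 1 lower (*Nr0b2*, the repressor SHP, -1.11) in ABpIF/+ vs Ctrl, with a median of -0.18. In ABpIF/F vs Ctrl *Nr1i3* alone of the 9 was called (median -0.19), and in ABpIF/+ vs ABpIF/F *Nr1i3* and *Ppargc1a* were higher (median 0.46). Of 8 other PXR and CAR targets, 2 were called lower in ABpIF/+ mice, *Cyp2b10* (-4.26, adjusted p = 0.00166) and *Cyp2c55* (-2.86, adjusted p = 0.000417), both P450 genes, with a median of -0.59. *Ces2a* and *Ugt1a1*, at -0.95 and -0.94, stayed short of the fold threshold there. In ABpIF/F mice the 2 called lower were *Slco1a4*, an organic anion uptake carrier (-1.40), and *Ces2a*, a carboxylesterase (-1.08), with a median of -0.61. *Cyp2b10* had the largest negative value there, -3.37, but missed the threshold (edgeR adjusted p = 0.0402). In ABpIF/+ vs ABpIF/F *Slco1a4* was higher (1.65) and *Cyp2c55* lower (-2.53), with a median of 0.16.

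Among 10 hepatocyte transcription factors, *Onecut2* fell in both mutant groups (-1.92 and -1.62), no other was called against Ctrl (medians -0.28 and -0.19), and none was called between the mutants (median -0.05). *Hnf4a* had log2 fold changes of 0.51 (adjusted p = 0.00789) in ABpIF/+ and -0.21 (adjusted p = 0.524) in ABpIF/F mice, and *Foxa1*, *Foxa2* and *Foxa3* were not called. Of 10 genes of growth hormone and STAT5 signaling, *Igfals*, *Ghr* and *Igf1* fell and *Cish* rose in ABpIF/+ mice (median -0.75), and *Cux2*, *Ghr*, *Igfals* and *Igf1* fell in ABpIF/F mice (median -0.51). *Ghr*, the growth hormone receptor, had 411 to 580 CPM in Ctrl and 161 to 227 in ABpIF/+ mice, with log2 fold changes of -1.50 (adjusted p = 4.09e-07) and -1.89 (adjusted p = 2.12e-06) in the mutant groups. *Stat5b*, the signal transducer that sets sex-biased liver transcription, was -0.56 (adjusted p = 0.00326) and -0.01 (adjusted p = 1.0), uncalled in each. *Cux2*, a female-specific repressor, was the single gene of this list called between the mutants, higher in ABpIF/+ by 3.09 (adjusted p = 3.63e-05), where the median was 0.13.

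Of the partners that P450 enzymes need, *Por* and *Alas1* separated the mutants most. *Por*, the oxidoreductase that feeds electrons to all microsomal P450 enzymes, had 749 to 896 CPM in 5 Ctrl mice and 286 in malpa387, and 818 to 1626 CPM in ABpIF/+ mice. In ABpIF/F mice it had 185 (BG183), 147 (BG38) and 156 (BG90) CPM, below every other mouse, with a log2 fold change of -2.13 against Ctrl (SE 0.29, adjusted p = 1.93e-05). ABpIF/+ exceeded ABpIF/F mice by 2.72 (SE 0.30, adjusted p = 4.18e-06). *Alas1*, the rate-limiting enzyme of heme synthesis, followed with 344 to 1486 CPM in 5 Ctrl mice, 196 in malpa387, 216 to 567 in ABpIF/+ and 42.4 to 53.4 in ABpIF/F mice (log2 fold change of ABpIF/F vs Ctrl -4.07, adjusted p = 0.000331). Of 12 genes of electron transfer and heme synthesis, *Cpox*, *Uros*, *Pgrmc1* and *Alad* fell in ABpIF/+ mice (median -0.40). *Alas1*, *Por*, *Cpox*, *Pgrmc1* and *Alad* fell in ABpIF/F mice (median -0.63). None rose against Ctrl, and in ABpIF/+ vs ABpIF/F *Alas1* and *Por* were higher and *Uros* lower (median 0.22). In malpa387, the Ctrl mouse with a clock score near those of ABpIF/F mice, *Por* and *Alas1* were the lowest of the Ctrl mice, and the part of the clock in these differences was not tested.

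**Figure D5:**
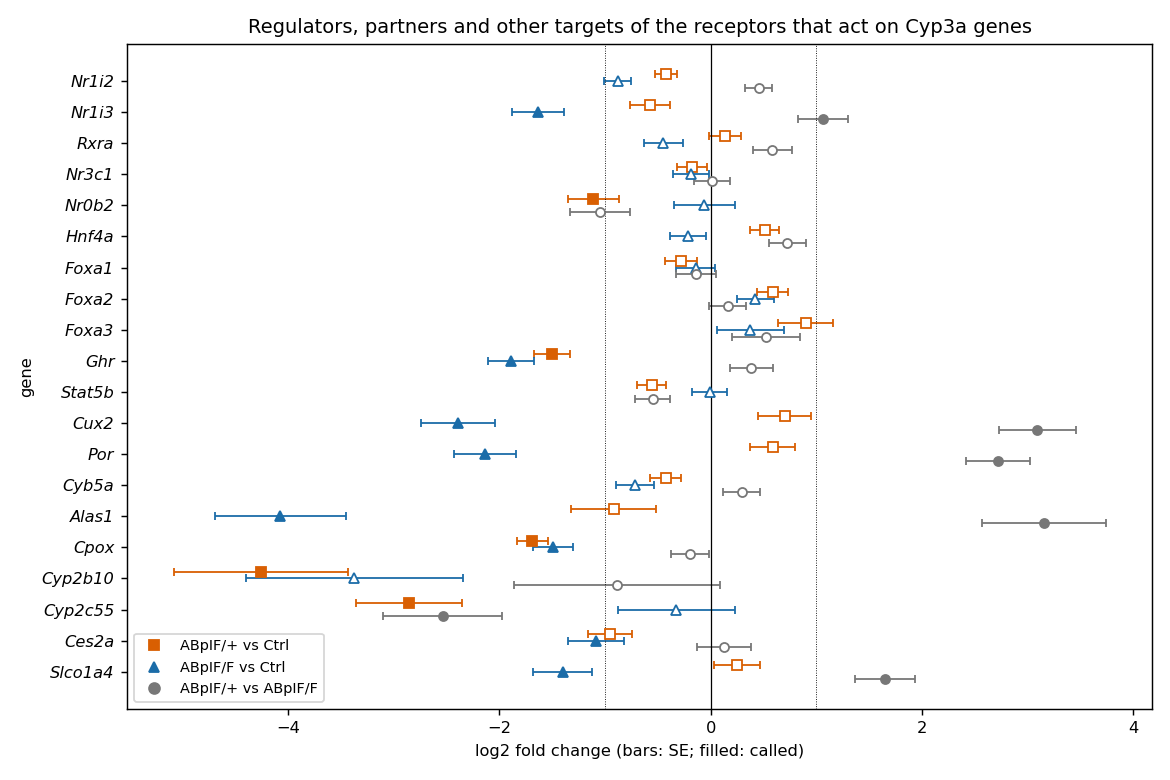
Log2 fold change (horizontal axis, bars are SE) of receptors, transcription factors, electron transfer and heme genes and other targets of PXR and CAR in the 3 comparisons, with filled symbols for called genes. *Nr1i3*, *Por* and *Alas1* are called lower in ABpIF/F vs Ctrl (-1.64, -2.13 and -4.07) and not in ABpIF/+ vs Ctrl, and their differences between the mutants (1.06, 2.72 and 3.15) are called as well.

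Other groups of liver genes were listed beside the members. Of 14 female-biased genes outside the family, 6 fell and *Hao2* rose in ABpIF/+ mice (median -0.99), 9 fell in ABpIF/F mice (median -1.998), and 6 were higher in ABpIF/+ than in ABpIF/F mice (median 1.55). *A1bg* fell from 770 to 2229 CPM in Ctrl to 26.3 to 199 in ABpIF/+ and 0.294 to 0.776 in ABpIF/F mice, and the sulfotransferase gene *Sult2a1* from 31.9 to 161 CPM to 1.57 to 5.24 and 0.50 to 1.0. Of 13 male-biased genes, 7 fell and 2 rose in ABpIF/+ mice (median -2.07), 5 fell and 2 rose in ABpIF/F mice (median -1.91), and *Mup20* and *Mup7* were lower in ABpIF/+ than in ABpIF/F mice (median -0.47). Genes of both sex biases were thus among those that fell. Of 10 genes of pericentral hepatocytes, the zone around the central vein where much P450 activity resides, 9 fell in ABpIF/+ (median -1.54) and 8 in ABpIF/F mice (median -2.36), among them *Cyp1a2* (-3.25 and -2.47) and *Glul* (-2.15 and -2.55). Between the mutants 2 of them were higher in ABpIF/+ and 1 lower (median 0.21). Of 9 periportal genes, *Cyp2f2* fell and *Arg1* and *Sds* rose in ABpIF/+ mice (median 0.09), 4 fell in ABpIF/F mice (median -1.03), and 5 were higher in ABpIF/+ than in ABpIF/F mice (median 1.44). Of 14 clock genes measured, *Cry1* and *Per1* rose in ABpIF/+ mice (median 0.18), *Tef*, *Hlf*, *Ciart* and *Nr1d2* fell in ABpIF/F mice (median -1.15), and between the mutants 4 were higher in ABpIF/+ and *Npas2* lower (median 1.25). A list of 12 genes of the inflammatory cytokine response held genes induced in hepatocytes and the cytokine genes *Il1b*, *Il6* and *Tnf*, at group means of 2.61 CPM or less. Of the 12, *Lcn2*, *Socs3* and *Hp* rose in ABpIF/+ (median 0.20) and *Lcn2* and *Hp* in ABpIF/F mice (median 1.90). None was called between the mutants (median -1.08).

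Markers of other cell types moved between the groups too. Summed markers of cholangiocytes (*Krt19*, *Krt7*, *Epcam*, *Sox9*) went from 6.25 to 8.11 CPM in Ctrl to 13.7 to 26.9 in ABpIF/+ and 28.6 to 66.6 in ABpIF/F mice. In ABpIF/+ mice *Sox9* made up most of the sum and was called higher (2.61), while *Krt19* was called lower (-1.21) and *Krt7* and *Epcam* were at -0.80 and -0.31, with a list median of -0.55. In ABpIF/F mice *Sox9* (3.70) and *Epcam* (1.69) were called higher, with a median of 1.39. Kupffer cell markers stood at 240 to 331 CPM in Ctrl, 86.4 to 168 in ABpIF/+ and 204 to 437 in ABpIF/F mice, with 2 of 4 called lower in ABpIF/+ and none in ABpIF/F. Stellate cell markers stood at 120 to 175, 35.5 to 74.3 and 108 to 168 CPM, with 3 of 3 called lower in ABpIF/+ and none in ABpIF/F. The endothelial (97.1 to 140, 59.0 to 122 and 103 to 145 CPM), lymphocyte (1.41 to 2.27, 0.282 to 1.09 and 2.00 to 4.32), neutrophil (0.149 to 1.03, 0.340 to 1.88 and 0.489 to 23.2), erythroid (15.4 to 64.2, 41.1 to 169 and 32.7 to 60.9) and pancreas (0.533 to 1.52, 0.645 to 2.2 and 0.554 to 0.751) lists gave these ranges in Ctrl, ABpIF/+ and ABpIF/F mice, in this order. Their part in the falls of the members was not tested. Enterocyte markers, looked at because *Cyp3a13* and *Cyp3a25* are also intestinal genes, summed to 56.8 to 77.3, 23.7 to 58.9 and 13.9 to 28.0 CPM, nearly all from *Fabp2* and *Lgals4*. *Cdx1* had 0 counts in every mouse and *Cdx2* at most 1.

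The genes outside the family whose profile over the 15 mice was most like each member were found by the root mean square (RMS) difference of centred log2 CPM among the 12316 genes that averaged 1 CPM or more. For *Cyp3a11* they were *Pecr*, *Pbld2* and *Sec14l2*, at 0.222, 0.238 and 0.266. For *Cyp3a16* they were *Sult3a1*, *Usp2* and *Cyp2c69*, at 1.04, 1.08 and 1.17. Outside the family, *Cyp3a41a* was nearest to *Sult2a1*, *Dct* and *A1bg* (1.39, 1.56 and 1.57), *Cyp3a41b* to *Mup13*, *Mup12* and *Dct* (1.06, 1.17 and 1.19), and *Cyp3a44* to *Slco1a1*, *Lipg* and *Kcnk10* (0.949, 0.957 and 0.978). *Cyp3a13* was nearest to *Rusc2*, *Cab39l* and *Glrx* (0.264, 0.277 and 0.278), *Cyp3a25* to *Nlrp6*, *Kifc2* and *Ftcd* (0.203, 0.242 and 0.242), and *Cyp3a59* to *2700097O09Rik*, *Tmem131l* and *Tmem241* (0.312, 0.314 and 0.320). Of these nearest genes, *Sult3a1*, *Cyp2c69*, *Sult2a1* and *A1bg* were on the female-biased list and *Slco1a1* on the male-biased list. The others, *Usp2*, *Mup12* and *Mup13* among them, were on neither list. Within the family, *Cyp3a25* and *Cyp3a59* were 0.247 apart, *Cyp3a41b* and *Cyp3a44* 1.02, and *Cyp3a41a* and *Cyp3a41b* 1.36, so that *Cyp3a59*, *Cyp3a41a* and *Cyp3a41b* each had a member nearer than any of these genes. These are descriptions over mice that share the 3 groups.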

How the data were processed

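The authors made stranded mRNA libraries, sequenced paired ends, aligned them with HISAT2 to mm10 and counted reads with featureCounts 2.0.8. The deposited raw counts (whole reads per gene) were used as they are, 1 column per mouse. The annotation, the strand setting and the handling of reads with several matches are not given in the sources used here. A second deposited table held equal counts for 10 mice and served for 1 alternative. Its other 5 count columns match no label, and these and its columns of the authors' fold changes and p-values were not used.

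Counts were analysed with edgeR 4.0.16 in R 4.3.3, with TMM scaling, robust dispersions and 1 quasi-likelihood fit of 3 groups, adjusted by Benjamini-Hochberg over 27179 genes. On simulated data this fit recovered 96.5% of 200 genes changed by 2 on the log2 scale in ABpIF/+ vs Ctrl and 92.5% in ABpIF/+ vs ABpIF/F. The changed genes averaged 1 CPM or more, and none was changed in ABpIF/F vs Ctrl, so recovery there was not measured. SE is the size of the log2 fold change divided by the square root of its F statistic, and intervals are 1.96 SE on each side. Ratios and shares were taken from unscaled counts and compared by two-sided exact permutation tests, the ratio with 0.5 counts added. Log2 CPM used a prior count of 2. Reads were concatenated by the authors, but whether across the samples of a mouse is not stated, and p-values measure the spread between mice. Gene positions came from RefSeq, transcript lengths and sequences from GENCODE M21, and promoters from RefSeq on GRCm38.p6. Named were all members, other Cyp3a genes, neighbours, most alike genes, and up to 6 called genes a list. Members and lists were chosen with earlier results of these data known. Alternatives were RLE factors, DESeq2 1.42.0, filterByExpr, other fit options, thresholds, covariates, summed paralogs, the second table, other ratio and share definitions, and leaving out each mouse.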

Additional observations from a re-analysis of the deposited data

Results flagged for a closer look

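In 1 of 22 groups of 6 mice examined for a value far from the others, such a value was found, and chance alone gives about 1 in 20. *Cyp3a57* in ABpIF/+ mouse BG31 had 1.13 CPM where the other 5 ABpIF/+ mice had 0.377 to 0.553 CPM, so that the gap was 0.767 of the range, above the critical 0.625.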

How the results depend on the processing

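The 4 members called in ABpIF/+ vs Ctrl were the same under all 9 other fits and without each of the 15 mice, which left 4 to 4 called. The 5 of ABpIF/F vs Ctrl were the same in 5 of 9 fits and without each mouse (5 to 5), but 3 were called with the strain label and 1 with the clock score as covariate, and 2 (*Cyp3a11* and *Cyp3a41a*) in the second deposited table, where BG3 is the single Ctrl mouse and is assumed to vary like the other groups. The 2 of ABpIF/+ vs ABpIF/F were the same in 4 of 9 fits and 9 of 15 omissions. There, 1 was called in a fit of the 2 groups alone, 0 with the clock score, 1 when a log2 fold change of 2 in size was required, and 0 to 3 without a mouse (0 without BG38, 1 without BG40 or BG90). With *Cyp3a16*, *Cyp3a41a*, *Cyp3a41b* and *Cyp3a44* summed to 1 feature, which leaves 5 features, 2 were called in each comparison with Ctrl.

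The ratio to *Cyp3a11* in ABpIF/+ vs Ctrl passed with *Cyp3a25* added to the denominator (-1.67, adjusted p = 0.0152) or *Cyp3a16* taken out (-3.15, 0.0130), and ranged from -1.53 to -0.86 without a mouse. In ABpIF/+ vs ABpIF/F it did not pass without *Cyp3a16* (0.96, 0.274). Without a mouse it ranged from -4.36 to -3.43 in ABpIF/F vs Ctrl and from 2.33 to 3.17 in ABpIF/+ vs ABpIF/F. The share without *Cyp3a11* was -0.30 (0.136) in ABpIF/+ vs Ctrl and 0.67 (0.0357) in ABpIF/+ vs ABpIF/F. Without a mouse the share ranged from -1.28 to -1.16, from -1.68 to -1.22 and from 0.0052 to 0.46. With 1 ABpIF/F mouse left out, fewer arrangements remained for the comparisons that include ABpIF/F mice. Their exact permutation tests then reached no adjusted p under 0.0536, while ABpIF/+ vs Ctrl kept all its mice. The cause of the other changes was not tested. No called value turned its direction, while *Cyp3a44* in ABpIF/+ vs ABpIF/F, which was not called, went to -1.01 with the clock score.

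No paired analysis was possible because replicate numbers only name the mice. The 10 columns of the second table that match labels held counts equal to those used in all 271790 cells. Members at a few counts, *Cyp3a41a* and *Cyp3a41b* in ABpIF/F mice, are limited by depth.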

Other observations

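The 3 genes with counts on each side of *Cyp3a13* behaved unlike those around the cluster. *Pilra*, *Pilrb1* and *Pilrb2*, which encode paired immunoglobulin-like receptors of myeloid cells, were called lower in ABpIF/+ than in Ctrl mice (log2 fold changes -1.57, -1.70 and -1.61) and lower in ABpIF/+ than in ABpIF/F mice (-1.98, -1.60 and -1.67). On the other side *Gjc3*, a connexin gene, was called higher in ABpIF/+ (2.85, adjusted p = 1.21e-09) and in ABpIF/F mice (2.01, adjusted p = 2.72e-06), and *Gm4963* in ABpIF/+ mice (1.22, adjusted p = 0.000283). *Azgp1*, which encodes a secreted glycoprotein and had a mean of 1404 CPM, did not reach the fold threshold in any comparison (0.68, 0.18 and 0.50).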
